A study of Mus musculus with 5 samples.

Results

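Globins are the oxygen carriers of red blood cells, and 7 mouse globin genes were described here: Hba-a1, Hba-a2 and Hba-x of the alpha cluster and Hbb-bs, Hbb-bt, Hbb-y and Hbb-bh1 of the beta cluster. They were taken by gene symbol from a table of 49875 gene IDs, and all 7 were among the 12769 genes that passed the filter on low values. The table came from wild-type mouse embryos at E13.5, whose dissected cerebral cortex was dissociated and lysed, and whose cytoplasmic supernatant was sequenced either directly (Input, n = 2) or after precipitation with an antibody against eIF4E (n = 2) or with rabbit control immunoglobulin G (IgG, n = 1). eIF4E is the protein that binds the 5′ cap of mRNAs at the start of translation. The labels gave no strain, sex, litter or pooling of embryos for any group, and called the tissue forebrain as well as neocortex.

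Haemoglobin is a tetramer of alpha-like and beta-like chains, each holding a heme. In the mouse embryo the first red cells arise in the yolk sac and use the embryonic chains zeta (Hba-x), epsilon-y (Hbb-y) and beta-h1 (Hbb-bh1) beside the adult alpha chain, and the later red cells of the fetal liver use adult alpha (Hba-a1, Hba-a2) with adult beta (Hbb-bs, Hbb-bt). The developing neocortex does not form red cells, but blood vessels run through it at this stage.

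Values were RSEM abundances per gene length, either TPM or FPKM, with no counts, so the depth behind each value was unknown. The column totals were 838759 and 848550 in Input, 718857 and 708778 in eIF4E and 560076 in IgG. The IgG library stood apart from the others before any result: it listed 11825 genes above 0, against 17412 to 18745 in the other 4 libraries, and mitochondrially encoded genes made up 7.53% of its total, against 0.642% and 0.657% in Input and 0.00839% and 0.00836% in eIF4E. All results against IgG rest on that 1 library. All 20 listed markers of neocortical progenitors and neurons were tested and above 0 in all 5 libraries.

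The alpha-like genes lie within a short stretch of chromosome 11 (GRCm38.p6, RefSeq): Hba-x (ENSMUSG00000055609) at chr11:32276600-32278116, Hba-a1 (ENSMUSG00000069919) at chr11:32283672-32284486 and Hba-a2 (ENSMUSG00000069917) at chr11:32296492-32297310. The beta-like genes lie on chromosome 7: Hbb-bt (ENSMUSG00000073940) at chr7:103812524-103813923, Hbb-bs (ENSMUSG00000052305) at chr7:103826523-103827928, Hbb-bh1 (ENSMUSG00000052217) at chr7:103841638-103843162 and Hbb-y (ENSMUSG00000052187) at chr7:103851754-103853207. Each span covers the whole annotated gene, exons and introns together. Since the adult copies within each cluster are nearly alike in sequence, RSEM had to divide reads between Hba-a1 and Hba-a2 and between Hbb-bs and Hbb-bt, and the level of each copy is less certain than their sum.

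The 120 bases before the annotated start are printed for the adult copies, to show how alike they are, and for Hbb-y, the embryonic gene of highest mRNA level here. The sequences come from RefSeq (GRCm38.p6), 5′ to 3′ on the gene's strand, and capitals mark the motif CACCC, the motif CCAAT and the motif TATAA on either strand, which do not overlap one another there. The windows are chr11:32283552-32283671 and chr11:32296372-32296491 on the plus strand and chr7:103827929-103828048, chr7:103813924-103814043 and chr7:103853208-103853327 on the minus strand.
Hba-a1: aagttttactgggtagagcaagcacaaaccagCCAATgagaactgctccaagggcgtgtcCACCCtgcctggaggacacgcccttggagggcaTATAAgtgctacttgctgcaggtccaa
Hba-a2: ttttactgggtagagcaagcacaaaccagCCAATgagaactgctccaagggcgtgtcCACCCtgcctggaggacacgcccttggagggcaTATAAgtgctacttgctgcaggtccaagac
Hbb-bs: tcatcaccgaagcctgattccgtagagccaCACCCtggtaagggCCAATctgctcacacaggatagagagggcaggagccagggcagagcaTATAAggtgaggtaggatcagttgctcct
Hbb-bt: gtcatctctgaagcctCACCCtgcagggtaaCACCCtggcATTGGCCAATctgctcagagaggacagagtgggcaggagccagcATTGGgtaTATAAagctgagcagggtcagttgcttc
Hbb-y: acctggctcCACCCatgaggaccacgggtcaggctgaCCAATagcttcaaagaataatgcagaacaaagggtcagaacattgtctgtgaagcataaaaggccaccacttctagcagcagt

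The upstream sequences of Hba-a1 and Hba-a2 were identical in 247 of 247 bases compared, once shifted by 3 bases against each other. Those of Hbb-bs and Hbb-bt matched in 127 of 249 bases (51%) with a shift of 1 base and no gaps. Promoters of 6 globin genes were matched, all but Hbb-bh1. Within 120 bases, CACCC, the core of the sites bound by the erythroid factor Klf1, was found in 6 of the 6, against 31.7% of 32851 RefSeq promoters. CCAAT was found in 5 of the 6, with none in Hba-x, against 21.3%, and TATAA in 5 of the 6, with none in Hbb-y, against 11.8%. GATAA, part of the site of Gata1, was found in 6 of the 6 within 250 bases, against 22.6% of all promoters, and in 1 of the 6 (Hba-x) within 120 bases, against 10.5%. Precipitation of cytoplasmic mRNA does not read promoters, so these matches are a description of the genes.

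Globin mRNAs were among the most abundant in the Input. Hba-a1, which encodes the adult alpha chain, measured 9728.56 and 10713.6 in the Input libraries and ranked 4 among all gene IDs in each. Hbb-y, the epsilon-y chain, measured 4534.39 and 4870.45 and ranked 13 and 11. Hbb-bs, the main adult beta gene, followed at 1379.14 and 1499.02, and Hba-x, the zeta chain, at 1053.52 and 1129.78. Then came Hbb-bh1, the other embryonic beta-like gene, at 172.85 and 186.24, Hba-a2 at 164.53 and 177.94 and Hbb-bt at 59.96 and 46.52. In this order of levels per length, each gene lay above the next in both Input libraries, except that the ranges of Hbb-bh1 and Hba-a2 overlapped. Summed over the 7 genes, globins made up 2.04% and 2.19% of the Input totals.

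**Figure D1:**
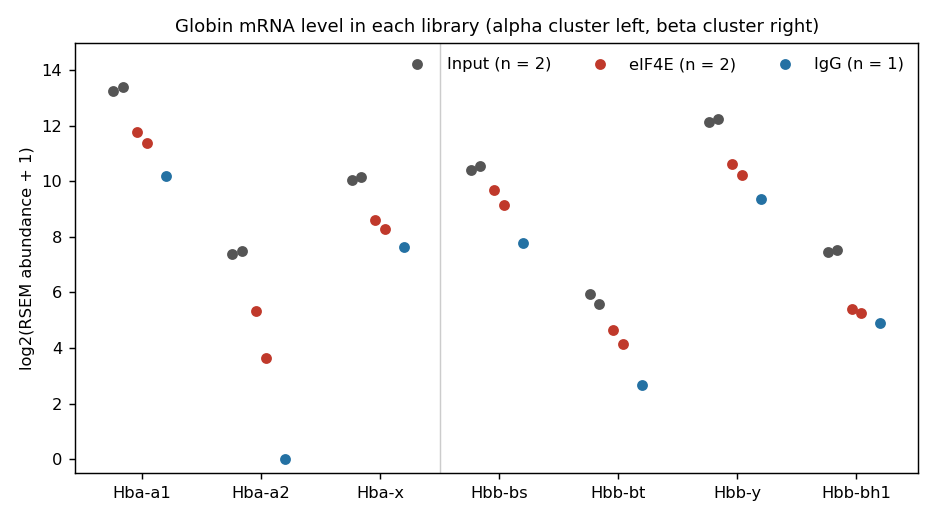
Level of each globin mRNA as log2(RSEM abundance + 1), with 1 point per library (Input n = 2, eIF4E n = 2, IgG n = 1). For every gene both Input points lie above both eIF4E points, and the IgG point lies below them all, with Hba-a2 listed at 0 in IgG.

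Every globin mRNA was lower in the eIF4E precipitate than in the cytoplasmic Input. With limma, 7 of 7 members fell and none rose, and the libraries of the 2 groups overlapped for none. The background was high: 30.6% of all genes tested were lower and 43.3% higher in eIF4E than in Input, and 37.6% had both eIF4E libraries below both Input libraries. The median log2 fold change of the members was −1.74 (0.299 of Input), against 0.16 over all genes tested. These values measure relative abundance in each library, and how much globin mRNA was bound cannot be read from them. The labels do not say whether an eIF4E and an Input library shared a lysate, and the cause of the fall was not tested. The same 7 were lower under every scaling tried, whereas the split of all calls moved with scaling: lower calls were 41.4% of all calls as deposited, 54.3% after median-of-ratios scaling, 53.7% after quantile normalization and 29.7% after rescaling to the same total.

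Among the adult alpha genes, Hba-a1 measured 3508.12 and 2656.77 in eIF4E, both far below the Input libraries. It fell to 0.299 of Input (log2 −1.74, SE 0.14, limma adjusted p = 4.9e-04), and to a smaller degree under quantile normalization (log2 −1.07). The library with the higher value was replicate 1. Hba-a2 measured 39.59 and 11.46 in eIF4E, and these replicates lay further apart than those of any other globin (ratio 0.289). It fell to 0.131 of Input (log2 −2.94, SE 0.57, adjusted p = 0.0081), but missed the threshold without Input replicate 2 (adjusted p = 0.0512) and with no filter on low values (0.0509). Its log2 value was −3.79 without eIF4E replicate 1 and −2.08 without eIF4E replicate 2. Taken as 1 sum, the adult alpha copies measured 10392 ± 706 (SD, n = 2) in Input and 3108 ± 622 (SD, n = 2) in eIF4E, a ratio of 0.299. The share of Hba-a2 in that sum was 1.66% and 1.63% in Input, and 1.12% and 0.43% in eIF4E.

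The embryonic genes fell as well. Hbb-y measured 1579.4 and 1214.16 in eIF4E and stood at 0.295 of Input (log2 −1.76, SE 0.13, adjusted p = 3.84e-04). Hba-x measured 394.52 and 311.36 and stood at 0.322 (log2 −1.64, SE 0.12, adjusted p = 3.72e-04). Hbb-bh1 measured 41.63 and 37.41 and stood at 0.224 (log2 −2.16, SE 0.08, adjusted p = 7.7e-05). The replicates of Hbb-bh1 lay closest together of the 7 in eIF4E, and its SE was the smallest.

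The adult beta genes fell least on the deposited scale, but under quantile normalization Hbb-bt (log2 −1.43) fell more than Hba-a1, Hba-x and Hbb-y (log2 −1.07, −1.27 and −1.28). Hbb-bs measured 827.43 and 565 in eIF4E and stood at 0.476 of Input (log2 −1.07, SE 0.19, adjusted p = 0.00599). Hbb-bt measured 24.03 and 16.9 and stood at 0.393 (log2 −1.35, SE 0.21, adjusted p = 0.00378). Even so, their eIF4E libraries lay below both Input libraries. Of all genes tested, 6.19% had a lower log2 fold change than Hbb-bs and 3.09% a lower one than Hbb-bt, while the shares for the other 5 members ran from 0.235% (Hba-a2) to 1.61% (Hba-x).

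The order of levels was nearly the same in eIF4E as in Input, from Hba-a1 through Hbb-y, Hbb-bs and Hba-x to Hbb-bh1. Below these, the range of Hba-a2 overlapped those of Hbb-bh1 and Hbb-bt. In rank among all gene IDs, Hba-a1 went from 4 in both Input libraries to 11 and 18 in eIF4E, and Hbb-y from 13 and 11 to 39 and 55. Globins together made up 0.892% and 0.679% of the eIF4E totals, 0.371 of their Input share.

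All 7 globins were lower in eIF4E replicate 2 than in replicate 1, with ratios from 0.289 (Hba-a2) to 0.899 (Hbb-bh1). Over all 12016 genes at 1 or more in both eIF4E libraries the median ratio was 1.01, and the middle 90% lay between 0.709 and 1.29. Hba-a2, Hbb-bs and Hbb-bt lay below that range. In Input the ratios of 6 globins lay between 1.07 and 1.10, and that of Hbb-bt was 0.776. The members thus moved together between replicates of a group, apart from Hbb-bt in Input, and are not replicates of one another.

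**Figure D2:**
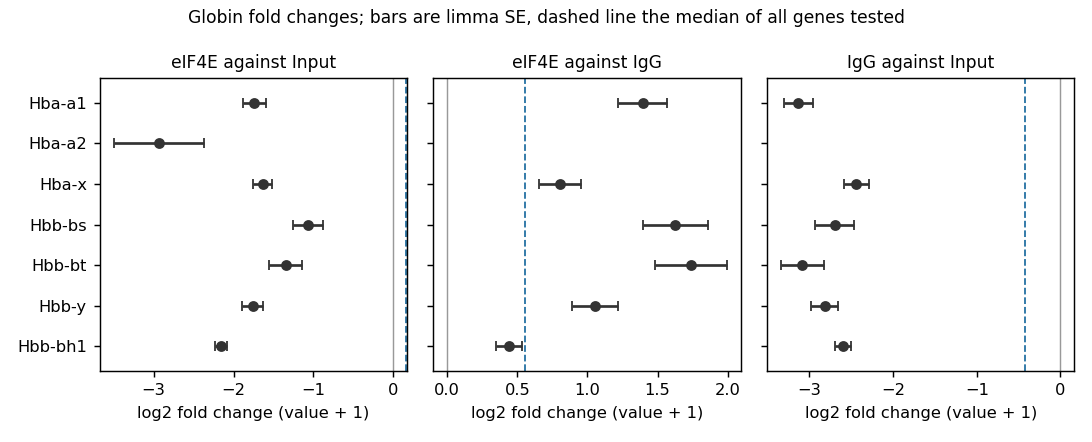
Log2 fold change of each globin on the scale of value + 1 in the 3 comparisons, which share libraries, with limma SE as bars and the median of all 12769 genes tested as a dashed line. In eIF4E against Input all 7 lie below the dashed line, from −1.07 (Hbb-bs) to −2.94 (Hba-a2), and Hba-a2 is left out of the IgG panels because IgG lists it at 0.

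The make-up of the globin mRNA was next compared within each library, since such ratios do not depend on whether values are TPM or FPKM. Embryonic genes (Hbb-y and Hbb-bh1) made up 76.6% of beta-like globin in both Input libraries, 65.6% and 68.3% in eIF4E and 75.4% in IgG. The eIF4E libraries thus held a smaller embryonic share and a larger adult share of beta-like mRNA, 66.9% ± 1.91 against 76.6% ± 0.00323 (SD, n = 2 each). The difference was −9.68 percentage points and −8.47 after quantile normalization. An exact two-sided permutation test gave p = 0.333, the smallest that 2 libraries against 2 allow, so this design could not reach 0.05. Gene by gene, Hbb-y stood at 3.29 and 3.25 times Hbb-bs in Input, 1.91 and 2.15 in eIF4E and 3.01 in IgG. Hbb-bh1 stood at 0.125 and 0.124 of Hbb-bs in Input, 0.0503 and 0.0662 in eIF4E and 0.131 in IgG. For both ratios the Input and eIF4E libraries did not overlap, and the IgG value lay nearer to Input.

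The alpha side differed less. Hba-x made up 9.62% and 9.40% of alpha-like globin in Input, 10.0% and 10.4% in eIF4E and 14.7% in IgG, and the small excess in eIF4E over Input turned to a deficit under quantile normalization (0.72 against −1.19 percentage points). The ratio of alpha-like to beta-like mRNA was 1.78 and 1.82 in Input, 1.59 and 1.63 in eIF4E and 1.48 in IgG. It was lower in eIF4E by a difference of −0.19, which turned to 0.03 under quantile normalization. For both measures the exact permutation test again gave p = 0.333.

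**Figure D3:**
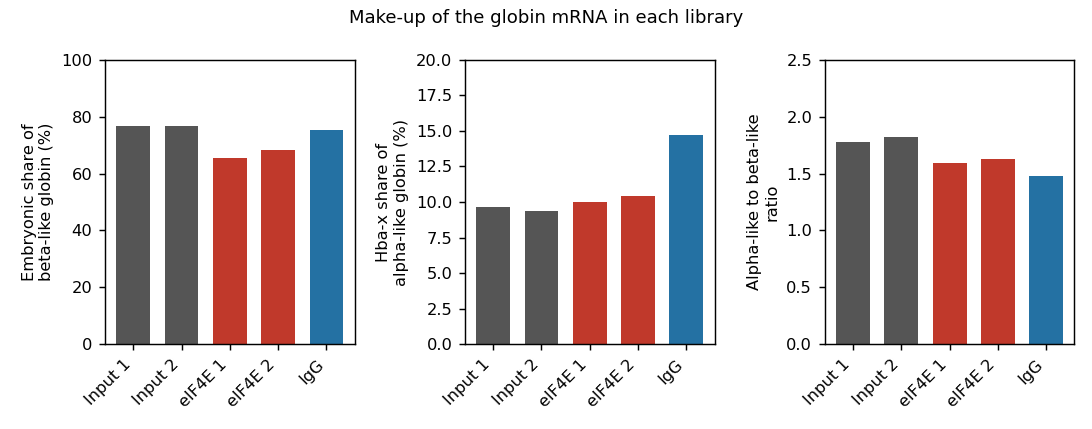
Make-up of globin mRNA, with 1 bar per library: the embryonic share of beta-like globin in percent, the Hba-x share of alpha-like globin in percent, and the ratio of alpha-like to beta-like globin. The embryonic beta share is 76.6% in both Input libraries and 65.6% and 68.3% in eIF4E, while IgG lies at 75.4%.

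The comparison with IgG asks how globin mRNAs stood against a precipitate made without the eIF4E antibody. All 7 were higher in eIF4E than in the IgG library (limma, with the lone IgG library assumed to vary like the others), where 53.1% of all genes tested were higher and 30.6% lower. How much RNA a precipitate held cannot be read from these values, so a higher relative abundance does not mean more globin mRNA. Of the 6 globins above 0 in IgG, Hbb-bt and Hbb-bs had the highest folds, at 5.34 and 220.81 in IgG, which put eIF4E at 3.34-fold and 3.09-fold (adjusted p = 0.00238 and 0.00216). Hba-a1, at 1162.09 in IgG, stood at 2.63-fold (log2 1.39, SE 0.18, adjusted p = 0.00141), with log2 0.56 under quantile normalization. Hba-a2 was listed at 0 in IgG, and no fold is given.

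The embryonic genes lay closer to IgG on the deposited scale. Under quantile normalization Hbb-bh1 and Hbb-y (log2 0.53 and 0.49) lay near the adult Hba-a1 (log2 0.56). Hbb-y measured 665 in IgG, and eIF4E stood at 2.08-fold (adjusted p = 0.00294). Hba-x measured 200.4, with eIF4E at 1.75-fold (adjusted p = 0.00578). Hbb-bh1 measured 28.81, with eIF4E at 1.36-fold (log2 0.44, SE 0.09, adjusted p = 0.00926). The calls for Hba-x and Hbb-y were lost under quantile normalization (adjusted p = 0.23 and 0.0528), and that for Hbb-bh1 after rescaling to the same total (0.329). Over all genes tested the median in this comparison was log2 0.55, and 47.7% of genes had a lower value than Hbb-bh1.

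The IgG library itself was below Input for all 7 globins, where 50.3% of all genes tested were lower and 37.8% higher. For the 6 globins above 0 in IgG, its level ran from 0.114 of Input (Hba-a1, log2 −3.13) to 0.184 (Hba-x, log2 −2.44), and quantile normalization brought it nearer to Input for Hba-a1, Hba-x, Hbb-bs and Hbb-y (log2 −1.63, −1.50, −1.74 and −1.77). The median over all genes was log2 −0.43. Globins made up 0.408% of the IgG total, or 0.441% of the total without mitochondrially encoded genes. A level below Input was therefore also found in the control precipitate, as far as 1 library shows.

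The other genes of the globin clusters and the globins of other tissues were low or at 0. Hbq1b, a theta-globin of the alpha cluster, measured 3.79 and 3.56 in Input, 1.5 and 1.09 in eIF4E and 0 in IgG. It fell to 0.489 of Input on the scale of value + 1 (log2 −1.03, limma adjusted p = 0.00234). All limma folds are on that scale, which understates changes of low genes. Hbq1a, the near-identical partner of Hbq1b, reached at most 2.16 and did not pass the filter. Hbb-bh2 was above 0 only in Input replicate 2 (0.41), and Hbb-bh3, Hbb-bh0, Hba-ps3 and Hba-ps4 were listed at 0 in all 5 libraries. Cygb, cytoglobin, measured 6.3 and 6.31 in Input, 6.02 and 5.19 in eIF4E and 5.47 in IgG, and did not pass against Input (0.902, adjusted p = 0.252). Ngb, the globin of neurons, reached at most 0.23, Mb, of muscle, 0.17, and Adgb was at 0 in all 5.

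Other erythroid genes were counted in the same way. Of 79 genes in 3 lists (heme synthesis and iron supply, red cell membrane and cytosol, erythroid transcription factors and receptors), 57 were tested. Against Input, 20 of them were lower and 20 higher in eIF4E, with a median of log2 −0.04 against 0.16 over all genes. These counts lie near the shares over all genes tested (30.6% lower and 43.3% higher) and are no result about erythroid genes, and the counts of the single lists are to be read against the same shares. Many genes of these lists also work in other cells. Gata1, the erythroid master regulator, was low beside the globins, at 0.33 and 0.5 in Input, and did not pass the filter.

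In the heme list 6 of 16 genes were lower and 4 higher. Alas2, the erythroid enzyme that starts heme synthesis, measured 69.9 and 71.12 in Input, 31 and 29.66 in eIF4E and 238.61 in IgG, and stood at 0.438 of Input (adjusted p = 1.08e-04). Urod, a later enzyme of the pathway, stood at 0.466 (adjusted p = 1.04e-04), and Tfrc, the transferrin receptor, at 2.49-fold. In the membrane and cytosol list 9 of 21 were lower and 8 higher. Rhd, an Rh blood group protein, stood at 0.312 of Input, and Blvrb, a biliverdin reductase, at 0.375. Rhd was low, at 0.31 and 0.28 in eIF4E, and its plain ratios to single Input libraries ran from 0.0749 to 0.118. Nt5c3, a nucleotidase, and Bnip3l, which clears mitochondria from maturing red cells, stood at 2.68-fold and 2.43-fold. In the list of factors and receptors 5 of 20 were lower and 8 higher. Zbtb7a, a repressor of embryonic globin, stood at 0.485 and Nfe2, an activator of globin genes, at 0.503, while Sox6, a repressor of Hbb-y, and Cbfa2t3, a corepressor, stood at 3.14-fold and 2.05-fold. Klf1, the activator of adult beta-globin, was picked out after its values were seen, at 2.21 in both Input libraries, 1.1 and 0.88 in eIF4E and 0 in IgG.

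Of the 57, 24 were higher in IgG than in Input and 22 lower, where 37.8% of all genes tested were higher and 50.3% lower, and 7 were listed at 0 in IgG. Rhd measured 37.07 in IgG against 3.74 and 2.63 in Input, and Nfe2 18.38 against 3.01 and 2.84. Alas2, Rhd and Nfe2 thus lay above Input in IgG, and Urod, Blvrb and Zbtb7a, named by the same rule, below it (log2 −1.22, −0.33 and −0.22, the last with limma adjusted p = 0.28). Of the genes named above as higher in eIF4E, Tfrc, Nt5c3 and Sox6 stood at 6.22-fold, 2.87-fold and 12.2-fold of Input in IgG. Bnip3l and Cbfa2t3 stood there at 1.1-fold and 0.46. The summed level of the 3 lists ran from 5987 to 6093 in Input and from 4661 to 4664 in eIF4E, and stood at 3281 in IgG. Most of the Input and eIF4E sums was Prdx2, a peroxiredoxin of many cell types that was picked out after its values were seen, at 3900.91 and 3975.73 in Input, 2439.32 and 2413.61 in eIF4E and 810.79 in IgG.

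**Figure D4:**
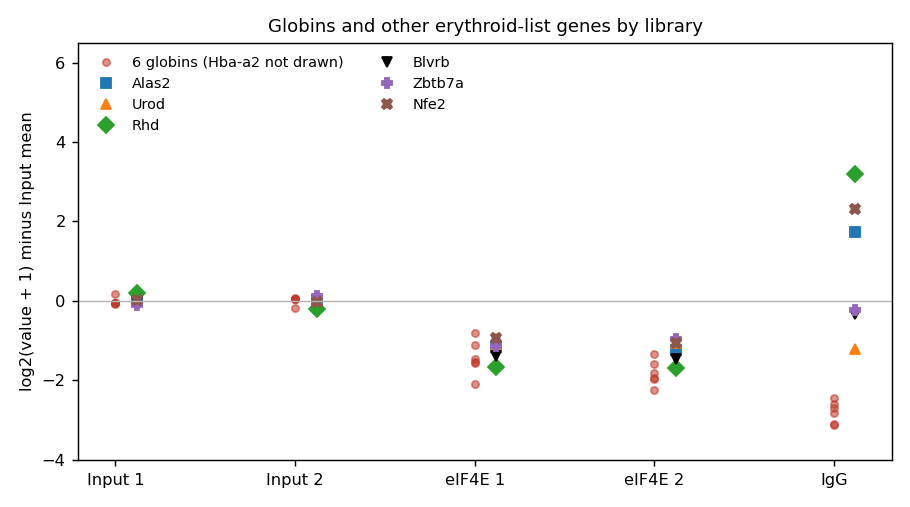
Level in each library minus the mean of both Input libraries, on the scale of log2(value + 1), for 6 globins and for other list genes. The list genes, chosen for their falls in eIF4E, are the 2 with the largest falls in each of the 3 erythroid lists. In IgG, Rhd, Nfe2 and Alas2 lie above 0, Urod, Blvrb and Zbtb7a below it (−1.22, −0.33 and −0.22) and the globins between −2.44 and −3.13.

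Other cells of the vessels and blood, and of the neocortex, were followed with marker lists, to be read against 30.6% lower and 43.3% higher over all genes tested. Of 16 endothelial markers tested, 10 were lower and 1 higher in eIF4E than in Input (median log2 −0.73), with Plvap, of fenestrated vessels, at 0.249 and Slc2a1, the glucose transporter of brain vessels, at 0.363. Emcn stood at 1.41-fold, and Egfl7 at 0.783. Of 11 microglial and macrophage markers tested, 6 were lower and none higher (median log2 −0.75), with C1qc and C1qb, complement components, at 0.336 and 0.337, and Csf1r, a growth factor receptor, at 0.53. The summed endothelial level was 619 and 630 in Input and 341 and 333 in eIF4E. The neocortical markers had 12 of 20 higher and 6 lower (median log2 0.64), from Map2 and Dcx, of neurons, at 4.53-fold and 4.36-fold, to Emx1 and Hes5, of progenitors, at 0.369 and 0.502. The lone IgG library lay on the same side of Input, with medians of log2 −2.01 (endothelial), −1.90 (microglial) and 0.72 (neocortical). Over all genes tested that median was log2 −0.43. Of the markers tested, 6 of 16 endothelial and 7 of 11 microglial ones were listed at 0 in IgG. For such genes the log2 fold depends on the 1 added to each value, and the microglial median fell on one of them (Aif1). Map2 and Dcx were higher still in IgG, at 9.2-fold and 15-fold of Input, and Emx1 and Hes5 stood at 0.26 and 0.799. The part of blood and vessel content in the fall of the globins was not tested.

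**Figure D5:**
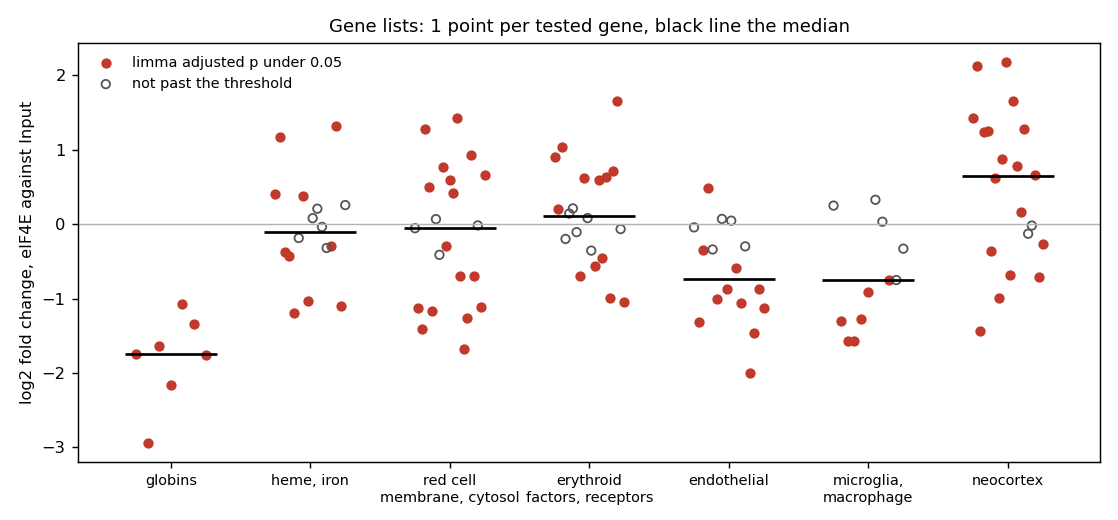
Log2 fold change of eIF4E against Input for each tested gene of 7 lists, filled where the limma adjusted p was under 0.05, with the median of each list as a black line. The globin median is −1.74, the medians of the 3 erythroid lists lie between −0.11 and 0.11, and those of the endothelial and microglial lists are −0.73 and −0.75.

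The genes whose pattern over the 5 libraries lay nearest to the mean globin profile were named by the distance between centred log2 profiles, among 6131 abundant genes. They were Rpl13 (0.18), Rpl36 (0.192), Rpl41 (0.233), Rps27 (0.299) and Rpl27a (0.329), which encode ribosomal proteins, and Cyba (0.285), a subunit of the NADPH oxidase, Pcsk1n (0.292), a convertase inhibitor, and Aldoa (0.331), a glycolytic enzyme. The median distance of all candidates was 2.9. The 7 globins lay at 0.301 (Hba-a1) to 3.35 (Hba-a2) from their own mean, and Hba-a2 lay further off than the median candidate. The mean profile included Hba-a2, listed at 0 in IgG, which lowered the IgG value of that profile. In IgG against Input the named genes lay between log2 −3.18 (Cyba) and −3.75 (Rps27). The globins other than Hba-a2 lay between log2 −2.44 (Hba-x) and −3.13 (Hba-a1), and each named gene lay below that range. A mean profile without Hba-a2 was not tested. Rpl13, for example, measured 926.5 and 1037.71 in Input, 316.77 and 246.28 in eIF4E and 92.44 in IgG, which is lower in eIF4E replicate 2 than in replicate 1 and lowest in IgG, as for the globins. Values of single ribosomal protein genes are uncertain because of their many pseudogenes, and 5 libraries are too few to tell such patterns apart.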

How the data were processed

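The labels' protocols describe dissociated cerebral cortex, a mild detergent lysate, a slow spin and precipitation on magnetic beads, followed by Smart-seq2 libraries, which are primed on poly(A) and do not mark strand or molecules. STAR 2.7.9a and RSEM 1.3.3 were used with mm10, per the submitters' processing notes. The deposited values are an abundance signal per gene and library (TPM or FPKM, which the header does not say). They carry 2 decimals and no counts.

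The table has 50161 rows. A further copy of an ID, with the same values, was left out (286 rows). Genes at 1 or more in at least 2 of 5 libraries were tested on log2(value + 1), so folds understate changes of low genes, with limma 3.58.1 in R 4.3.3 (3 groups, eBayes with trend, two-sided, Benjamini-Hochberg over 12769 genes, threshold 0.05). The fit has 2 residual and 2.571 prior degrees of freedom (median). It was tested on simulated data. The labels call replicates biological without naming animals, so the spread behind a p-value is only that of these libraries and may be technical.

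The members and lists were chosen with earlier results of these data known, so no list is tested as such. Named genes are the members, the 2 highest and 2 lowest called genes of each list, every other listed globin, and the 8 nearest (a few listed genes are not reported here) by Euclidean distance of centred profiles among genes of above-median level without clone names. Promoters are RefSeq, 250 bases before each start. Ahsp, Hbb-b1 and Hbb-b2 were not analysed here. Alternatives covered scaling, pseudocount (0.1 and 5), filter, trend, left-out replicates and a replicate block.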

Additional observations from a re-analysis of the deposited data

How the results depend on the processing

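The direction of all 7 globins in the 3 comparisons held under every alternative in which they were fitted (Hba-a2 was not, where only genes above 0 in all 5 libraries were kept), and the number called stayed between 5 and 7. Of 263 values of single globins under an alternative, 5 lost their call, all given beside the results: Hba-a2 against Input (with no filter, and without Input replicate 2), and Hba-x, Hbb-y and Hbb-bh1 against IgG. Quantile normalization changed the differences between eIF4E and Input in make-up: −1.19 percentage points for the Hba-x share, 0.0321 for the alpha-like to beta-like ratio and −0.951 percentage points for the globin share of the library, against 0.718, −0.191 and −1.33 as deposited. Rescaling to the same total multiplies each library by a constant factor, which shifts all genes alike except for the part of the pseudocount. In IgG against Input it moved the median of all genes from log2 −0.43 to 0.03, and the globins with it. Hba-a1, Hba-x, Hbb-bs, Hbb-y, Hbb-bh1 and Hbb-bt then stood at log2 −2.54, −1.85, −2.11, −2.23, −2.02 and −2.55. With a pseudocount of 5, Hbb-bt stood at log2 −2.48. For Hba-a2, at 0 in IgG, the value depended on the pseudocount (log2 −10.74 with 0.1 and −5.14 with 5). The cause of the changes under quantile normalization was not tested. The median of all genes in eIF4E against Input was log2 0.16 as deposited, −0.11 after median-of-ratios scaling, −0.10 after quantile normalization and 0.36 at the same total. The labels number the eIF4E and Input libraries alike without saying that a number marks shared embryos, and the deviations of same-numbered libraries correlated at r = 0.0236 over 12769 genes. With the replicate block, 7 of 7 globins were lower in eIF4E than in Input, as without it. Without depth, no counting error can be given for any level.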

Other observations

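Platelet genes were looked at as well, but most were too low to be tested. Of 15 megakaryocyte and platelet markers, 3 were tested. Pf4, platelet factor 4, measured 13.22 and 21.94 in Input, 8.16 and 4.71 in eIF4E and 0 in IgG, and fell to 0.40 of Input (limma adjusted p = 0.0192). Clec1b and Gp1bb did not pass against Input, at 1.07-fold and 1.26-fold (adjusted p = 0.703 and 0.0737).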
